A study of Mus musculus with 32 samples.

Results

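Wild-type liver and brown adipose tissue (BAT) were compared over all genes, by RNA sequencing of 4 liver libraries and 4 BAT libraries taken by their titles. These are 8 of the 32 libraries of the series, whose other libraries come from heart and skeletal muscle of wild-type (WT) mice and from all tissues of a SMIM30 knockout line labelled Mut. Both groups came from male C57BL/6J mice labelled WT, with no agent and no engineered allele named for them, and the tissues were frozen in liquid nitrogen. No source used here gives the ages of the mice. Per the series' design text each tissue was taken from 4 mice, and it is not stated if liver and BAT libraries of equal number share a mouse. Values are TPM, a length-normalised share of the transcripts in a library, summed over the transcripts of each gene. Of 51510 genes, 12399 averaged 1 TPM or more in the 8 libraries and were tested.

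Liver and BAT are among the main sites where a mouse makes fatty acids, and they do different things with them. Hepatocytes pack fatty acids into lipoproteins for export, turn them into ketone bodies during fasting, make glucose and bile acids, and secrete most plasma proteins. Brown adipocytes keep triglyceride in many small droplets, release fatty acids from them under adrenergic stimulation, and burn them in mitochondria whose inner membrane holds uncoupling protein 1 (UCP1), which lets protons return without making ATP and so gives heat.

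The defining genes of each tissue followed the labels. Alb, which encodes serum albumin (chr5:90460897-90476602 on GRCm38), read 51729, 63206, 57876 and 56849 TPM in liver libraries 1 to 4 and 482, 557, 596 and 553 TPM in BAT libraries 1 to 4. Ucp1 (chr8:83290352-83298452) read 52.7, 61.9, 54.9 and 60.2 TPM in liver and 2444, 2837, 3417 and 3565 TPM in BAT. The groups lay far apart for both genes, and BAT libraries 3 and 4 were above libraries 1 and 2 for Ucp1. Of 10 hepatocyte markers, 9 were called and at least 2-fold higher in liver (19.5% of all tested genes were), the exception being Pck1. On a longer list of 26 hepatocyte identity genes, 25 were (median log2 difference 6.15). All 25 had their lower tissue within 3% of the highest WT tissue, a limit taken up below. Of 10 brown adipocyte markers 8 could be tested, and 7 of these were called and at least 2-fold higher in BAT (16.1% of all tested genes were). The exception was Elovl3, a fatty acid elongase often used as a brown fat marker, which was higher in liver. Zic1 and Lhx8, transcription factors known from the brown fat lineage, averaged 1.71 and 1.18 TPM in BAT and 0.0533 and 0.0534 TPM in liver, under the limit for a test.

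A low level of the other tissue's most abundant RNA was present in every library, and it limits all large differences below. The 9 hepatocyte markers other than Pck1 read between 0.860% and 1.12% of their liver level in BAT, and between 0.835% and 1.08% in heart. Ucp1, Cidea, Plin1 and Adipoq read 1.82% to 1.91% of their BAT level in liver. Markers of skeletal muscle, a tissue that neither sample is labelled to hold, read 1.30% to 1.77% of their muscle level in liver and 1.44% to 2.04% in BAT. A gene's true ratio between the tissues can therefore be larger than printed wherever the lower tissue lies within about 3% of the highest of the 4 WT tissues, and such a lower value is not read as expression. Where this low level came from was not tested.

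Across all genes, 8758 of 12399 (70.6%) differed between the tissues (limma, Benjamini-Hochberg adjusted p under 0.05, referred to as called below). In liver 4687 genes were higher (37.8%) and in BAT 4071 (32.8%). Counts of called genes in the lists below are to be read beside these shares. Called and at least 2-fold different on the log2(TPM + 1) scale were 2414 genes toward liver (19.5%) and 2002 toward BAT (16.1%). In these 4416 genes the libraries of liver and BAT did not overlap for 4374, where 65.8% of all tested genes had groups that did not overlap. These genes were selected for a difference in the same 8 libraries, so their separation is not separate evidence. The lower tissue lay within 3% of the highest WT tissue for 753 of the 2-fold genes higher in liver (31.2%) and 168 of those higher in BAT (8.39%). Of the genes at least 2-fold higher in liver, 92.8% were higher in liver than in any of the other 3 tissues. For BAT this share was 67.0%, so more of its genes had their peak in heart or muscle.

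Libraries of a tissue were not all equally alike, and in BAT they fell into pairs, 1 with 2 and 3 with 4. Over 7670 genes of at least 5 TPM their log2 values correlated at 0.992 and 0.991 within the pairs and 0.974 to 0.977 across them. With libraries 1 and 2 left out 2396 genes were called 2-fold higher in liver and 2133 in BAT, and with 3 and 4 left out 2603 and 1723. The split of calls between liver and BAT was 49.9% to 50.1% in the first case and 59.5% to 40.5% in the second, against 53.5% to 46.5% with all libraries. Liver libraries correlated at 0.971 to 0.978 where library 1 was involved and at 0.983 to 0.988 among the others.

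TPM divides every library into shares of a fixed sum, and mitochondrial RNA took a very different share of it in the 2 tissues. Mitochondrially encoded genes held 11.7% ± 1.82 of the TPM in liver and 36.9% ± 1.11 in BAT (SD, n = 4). A further 5.37% ± 0.236 and 17.1% ± 1.93 were assigned to 7 pseudogenes in a block of chromosome 1 whose sequence is nearly that of mitochondrial genes, so that their reads cannot be told from mitochondrial RNA. When the TPM were rescaled without mitochondrially encoded genes, the median log2 difference of all genes went from 0.04 to -0.39, and the calls became 3101 higher in liver and 6927 higher in BAT (30.9% to 69.1%). Without the pseudogenes as well the median was -0.72 and the calls 2458 and 9046 (21.4% to 78.6%). Small differences in favour of liver therefore depend on the scaling, and each called gene named below whose direction turns is given with both values. No gene that was 2-fold different in the TPM as deposited was 2-fold different in the opposite direction under any of the scalings.

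**Figure D1:**
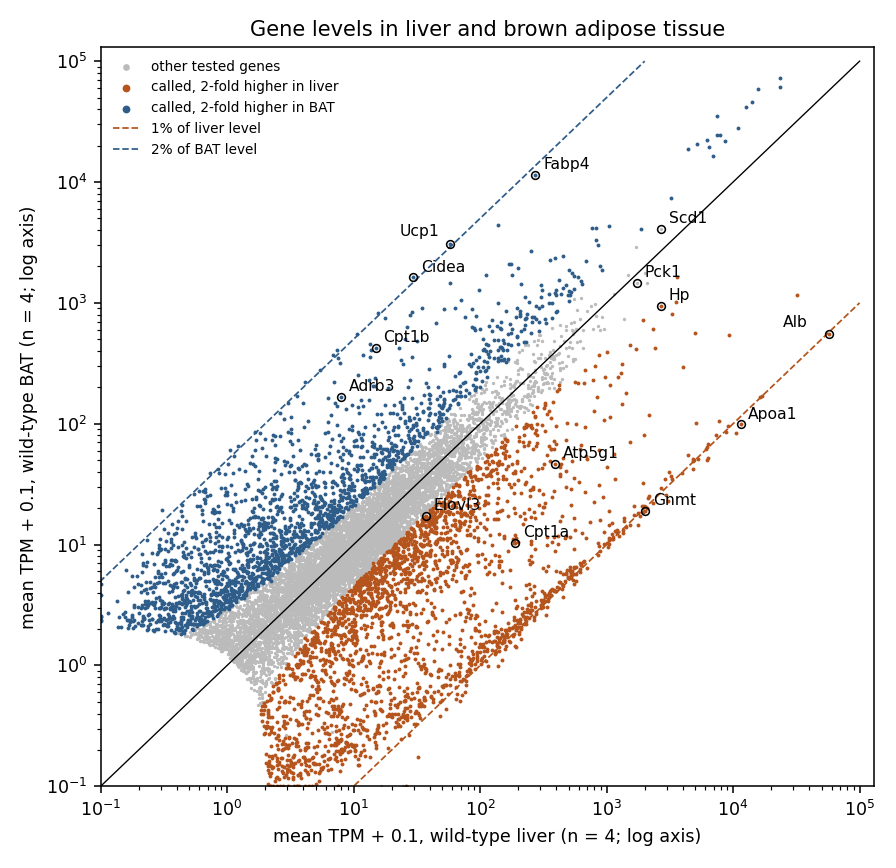
Mean TPM in liver (x axis) and BAT (y axis) of the 12399 tested genes, each with 0.1 added, on log axes. Each point is a gene, coloured where it was called and at least 2-fold different. The dashed lines mark 1% of the liver level and 2% of the BAT level, along which the most tissue-restricted genes, such as Alb and Apoa1 or Ucp1 and Cidea, lie.

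The genes of largest difference toward liver encoded secreted proteins. By the naming rule these were the major urinary proteins Mup3, Mup14 and Mup19, apolipoproteins Apoa1 and Apoh, Serpina3k and Serpina1c (protease inhibitors), Alb, the kininogen Kng1, the carrier protein Ahsg (fetuin A), the fibrinogen chain Fgg, and Gnmt, which is not secreted and methylates glycine in the cytosol of hepatocytes. Their log2 differences ran from 6.64 to 6.96. Apoa1, the main protein of high density lipoprotein, read 9752, 12391, 11554 and 12085 TPM in liver and 89.7, 103, 101 and 101 TPM in BAT (log2 difference 6.84 ± 0.10, adjusted p = 3.33e-12). Its BAT libraries lay close together, and its mean in heart was similar, at 95.6 TPM. All 12 read between 0.748% and 0.984% of their liver level in BAT, so their order by fold carries little meaning. Among them Mup14 differed most between liver libraries, at 5529.8, 1906, 2038 and 2807 TPM, with library 1 well above the other 3. The Mup genes are near-identical copies, and how reads were divided between them is uncertain.

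The genes of largest difference toward BAT were those of the lipid droplet, the adipocyte and heat production. They were Cidea and Plin1 (droplet proteins), Ucp1, Prkar2b (a regulatory subunit of protein kinase A), the adipokine Adipoq, Tmem45b, the amino acid transporter Slc36a2, Adig (adipogenin), the fatty acid binding protein Fabp4, Rgcc, the secreted glutathione peroxidase Gpx3, and Trarg1, a protein of the vesicles that carry the insulin-responsive glucose transporter. Log2 differences ran from -5.73 to -5.23. Cidea, which helps droplets to fuse, read 30.5, 29.5, 28.2 and 29.9 TPM in liver and 1738, 1676, 1559.8 and 1529 TPM in BAT (log2 difference -5.73 ± 0.08, adjusted p = 3.33e-12). Fabp4 was the most abundant nuclear mRNA of the 12 in BAT, at 11496, 12491, 11647 and 9972 TPM, and read 289.8, 309, 247 and 249 TPM in liver. Fabp4, Rgcc and Gpx3 were above the common low level in other tissues, at 917, 39.2 and 146 TPM in heart, while Ucp1 was not (48.4 TPM).

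Windows of 250 bases before the RefSeq start (GRCm38.p6) are shown for genes on either side of the comparison, to set the sequence beside the level. These genes were picked by hand, not by rule. Capitals mark matches to any of 7 short motifs, searched on both strands: HNF1 (TTAAT, any 2 bases, TT, any base, AC), HNF4 (CAAAGTCCA), C/EBP (TTGCNNAA), the CCAAT box, NRF1 (GCGC, any base, TGCGC), ERR (TCAAGGTCA) and the TATA box (TATAAA). HNF1 and HNF4 are the textbook regulators of hepatocyte genes, and NRF1 of nuclear genes for mitochondrial proteins. The windows lie at chr5:90460620-90460869 (plus strand) for Alb, chr3:83049864-83050113 (minus) for the fibrinogen chain Fgb, chr19:43782058-43782307 (plus) for the bile canaliculus transporter Abcc2, chr9:121916306-121916555 (minus) for Cyp8b1 of bile acid synthesis, chr8:83290098-83290347 (plus) for Ucp1, chr14:73552536-73552785 (plus) for the citric acid cycle subunit Sucla2, and chr5:115348959-115349208 (minus) for the cytochrome oxidase subunit Cox6a1. Each is written 5′ to 3′ on the strand of its gene.
Alb: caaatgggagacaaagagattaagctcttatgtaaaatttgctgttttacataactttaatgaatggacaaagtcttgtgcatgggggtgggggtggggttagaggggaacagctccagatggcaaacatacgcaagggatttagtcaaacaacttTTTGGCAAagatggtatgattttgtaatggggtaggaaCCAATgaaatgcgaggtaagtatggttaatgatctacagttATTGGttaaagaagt
Fgb: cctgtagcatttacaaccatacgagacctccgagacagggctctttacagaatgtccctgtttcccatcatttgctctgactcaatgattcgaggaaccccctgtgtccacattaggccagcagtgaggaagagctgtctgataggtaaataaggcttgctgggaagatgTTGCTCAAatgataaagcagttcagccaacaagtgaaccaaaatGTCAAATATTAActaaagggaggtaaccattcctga
Abcc2: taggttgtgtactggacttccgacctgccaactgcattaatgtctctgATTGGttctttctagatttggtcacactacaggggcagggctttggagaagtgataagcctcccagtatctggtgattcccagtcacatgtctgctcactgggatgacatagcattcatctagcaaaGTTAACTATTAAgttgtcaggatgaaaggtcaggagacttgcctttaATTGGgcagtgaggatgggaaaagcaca
Cyp8b1: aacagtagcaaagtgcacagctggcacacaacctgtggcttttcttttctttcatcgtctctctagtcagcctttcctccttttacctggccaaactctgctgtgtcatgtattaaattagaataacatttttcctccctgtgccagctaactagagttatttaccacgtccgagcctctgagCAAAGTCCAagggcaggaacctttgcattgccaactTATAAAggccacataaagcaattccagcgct
Ucp1: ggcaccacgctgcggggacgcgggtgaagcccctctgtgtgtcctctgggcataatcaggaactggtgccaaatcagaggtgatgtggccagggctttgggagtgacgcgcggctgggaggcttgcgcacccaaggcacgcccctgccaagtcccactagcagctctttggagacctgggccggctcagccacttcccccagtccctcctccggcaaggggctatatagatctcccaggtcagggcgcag
Sucla2: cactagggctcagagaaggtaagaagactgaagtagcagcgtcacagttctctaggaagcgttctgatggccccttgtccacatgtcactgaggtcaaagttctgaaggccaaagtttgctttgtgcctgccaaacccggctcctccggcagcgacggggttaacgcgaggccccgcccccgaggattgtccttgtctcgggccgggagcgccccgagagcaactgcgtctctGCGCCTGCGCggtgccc
Cox6a1: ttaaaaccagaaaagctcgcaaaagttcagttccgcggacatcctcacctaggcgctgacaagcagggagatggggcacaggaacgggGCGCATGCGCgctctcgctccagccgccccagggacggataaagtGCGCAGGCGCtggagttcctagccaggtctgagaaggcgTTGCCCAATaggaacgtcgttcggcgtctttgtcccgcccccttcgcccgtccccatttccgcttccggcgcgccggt

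An HNF1 match lay in the window of 24 of the 1776 genes at least 2-fold higher in liver that had a window (1.35%), against 1 of 1436 higher in BAT (0.0696%) and 0.418% of all 27025 genes with one. In Fgb it reads GTCAAATATTAA, 36 to 25 bases before the start, and in Abcc2 GTTAACTATTAA, 75 to 64 bases before it. Both genes stood at the common low level in BAT: Fgb read 947, 967, 1023 and 1247 TPM in liver and 8.94, 9.77, 11.4 and 10.1 TPM in BAT, and Abcc2 read 198, 161, 149 and 135 and 0.965, 1.54, 1.63 and 1.26 TPM. HNF4 matches were in 1.13% of the liver windows, 0.557% of the BAT windows and 0.451% of all. NRF1 matches were in 15 of 91 windows of nuclear respiratory chain, ATP synthase and citric acid cycle genes (16.5%) and in 4.23% of all, or 9.32% of the tested genes. They were in 91 of the BAT windows (6.34%) and 91 of the liver windows (5.12%), both below the share of the tested genes. ERR matches were in 0.348% of BAT windows, 0.282% of liver windows and 0.422% of all. Among the tested genes the shares were 0.308% for ERR, 0.361% for HNF1 and 0.499% for HNF4. C/EBP, CCAAT and TATA matches stood in 10.8%, 37.5% and 14.3% of all windows and in 9.50%, 40.4% and 8.62% of those of tested genes. In liver windows they stood at 13.5%, 43.9% and 12.6%, and in BAT windows at 10.3%, 38.2% and 10.0%. A C/EBP match can overlap a CCAAT match, as in Cox6a1, and the Ucp1 window holds none of the 7. In Alb the C/EBP match TTTGGCAA stands 94 to 87 bases before the start, and in Cyp8b1 the HNF4 match stands 67 to 59 bases and a TATA box 31 to 26 bases before it. The NRF1 match of Sucla2 (GCGCCTGCGC) stands 17 to 8 bases before the start, and Cox6a1 has matches at 162 to 153 and at 117 to 108 bases. Sucla2 read 132, 142, 136 and 141 TPM in liver and 987, 935, 1047 and 1043 TPM in BAT, and Cox6a1 534, 567, 561 and 460.3 and 1803, 2099, 1656 and 1497 TPM, in both cases with every BAT library above every liver library. The motifs were chosen with values known, matches are letters and not sites, and no difference between these shares was tested.

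For the entry of fatty acids into mitochondria, liver and BAT held mainly the mRNA of different isoforms. Carnitine palmitoyltransferase 1 makes the acylcarnitines that cross the inner membrane, and the liver form Cpt1a read 172, 205, 153 and 224 TPM in liver and 7.89, 8.29, 12.5 and 12.2 TPM in BAT (log2 difference 4.09 ± 0.17, adjusted p = 5.22e-09). The muscle form Cpt1b read 17.3, 15.3, 12.8 and 13.8 TPM in liver and 402, 386, 463 and 451 TPM in BAT (log2 difference -4.76 ± 0.11, adjusted p = 3.52e-11). No library of either tissue overlapped the other for either gene, and BAT libraries 3 and 4 were the higher ones for both. Cpt1a made up 92.7% of the sum of both forms in liver and 2.35% in BAT. Cpt1b stood above its heart and muscle levels in BAT (244 and 166 TPM).

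Behind that entry step, mitochondrial beta-oxidation genes were higher in BAT nearly throughout. Of 27 tested genes of this list, 22 were higher in BAT, 3 in liver and 2 not called, with a median log2 difference of -1.46, where the median of all genes was 0.04. Hadhb, the thiolase subunit of the trifunctional protein, read 254, 268, 243 and 249.7 TPM in liver and 2619, 2780.3, 2772 and 2624 TPM in BAT (log2 difference -3.41 ± 0.08, adjusted p = 3.50e-11). The libraries of each tissue lay close together and the groups were 10.6-fold apart. The acyl-CoA dehydrogenases Acadvl (304 against 1404 TPM), Acadl (211 against 1439.7 TPM) and Acadm (302 against 1113 TPM) of very long, long and medium chains were each higher in BAT, as was the carnitine acetyltransferase Crat (51.2 against 302 TPM). Means in parentheses are given liver first here and below. Those higher in liver were Cpt1a, the enoyl-CoA isomerase Eci2 (328 against 143 TPM) and Acad11, which lies in peroxisomes as well (175 against 126 TPM, log2 difference 0.47, turning to -0.38 without mitochondrial genes and their copies).

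Peroxisomal oxidation went the other way. This pathway shortens very long and branched fatty acids and the side chains of bile acids. Of 26 tested genes, 19 were higher in liver (37.8% of all tested genes were) and 6 in BAT (32.8%). The list's median log2 difference was 1.73. The thiolase Acaa1b was 23.1-fold higher in liver (1012 against 43.8 TPM), Acox2 for bile acid intermediates 53.1-fold, and the catalase gene Cat 4.29-fold. Toward BAT were Abcd2, a fatty acid transporter of the peroxisome membrane (8.04 against 37.9 TPM), the isomerase Ech1 (419 against 1551 TPM) and the ether lipid enzymes Gnpat (27.6 against 107 TPM) and Agps (2.46 against 4.95 TPM). The acyl-CoA thioesterases split by form: Acot3 and Acot4 were higher in liver (85.8 against 1.21 TPM and 63.9 against 6.38 TPM), as was Acot1 (59.9 against 5.08 TPM), while the mitochondrial Acot2 (11.8 against 53.1 TPM) and Acot11 (3.65 against 60.7 TPM), a thioesterase known from thermogenic fat, were higher in BAT. These thioesterases share sequence, so reads may be divided between near copies.

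In 13 of 36 pairs of related enzymes or proteins, the first form was at least 2-fold higher in liver and the second at least 2-fold higher in BAT. Sugar handling holds many of them. The glucose transporters Slc2a2 (195 against 1.92 TPM) and Slc2a4 (10.9 against 122 TPM) and the pyruvate kinases Pklr (232 against 3.51 TPM) and Pkm (63.0 against 904 TPM) divided in the same way. So did the fructose bisphosphatases Fbp1 (867 against 9.58 TPM) and Fbp2 (1.83 against 19.6 TPM), and the glycogen synthases Gys2 (159 against 34.9 TPM) and Gys1 (4.49 against 56.0 TPM). Gys2 was not at the low level in BAT, since its mean there was 21.9% of that in liver. In 7 other pairs both forms were at least 2-fold higher in BAT, among them the acetyl-CoA carboxylases Acaca and Acacb and the glycerol-3-phosphate dehydrogenases Gpd1 and Gpd2. The elongases Elovl2 and Elovl3 were both at least 2-fold higher in liver, and the remaining 15 pairs had at least 1 form below 2-fold or uncalled.

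**Figure D2:**
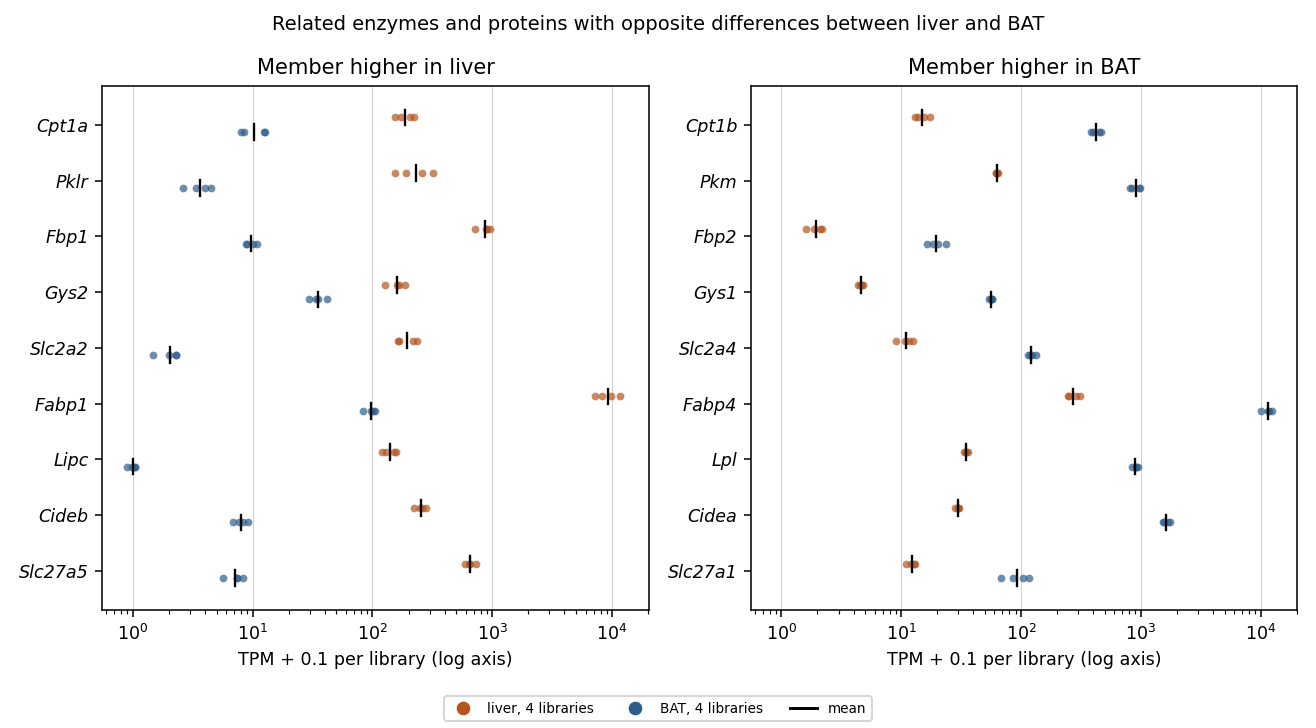
TPM with 0.1 added in each library (log axes) for 9 pairs with opposite 2-fold differences, the form higher in liver on the left and the form higher in BAT on the right, on the same row. Points are the 4 liver and 4 BAT libraries and vertical ticks their means, and in every gene shown the groups lie apart.

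The same division ran through fatty acid uptake and binding. Of 27 tested genes of this list, 15 were higher in liver (37.8% of all tested genes were) and 12 in BAT (32.8%). The median of 0.65 turned to -0.13 without mitochondrial genes and their copies. The binding proteins Fabp1 and Fabp4 exchanged places: Fabp1 read 9765, 11529, 8257 and 7160.2 TPM in liver and 82.7, 96.3, 105 and 101 TPM in BAT. Fabp3, the heart form, was the other abundant form in BAT (112 against 1704 TPM). Lipoprotein lipase Lpl, which frees fatty acids from circulating triglyceride, read 33.5, 34.5, 34.4 and 35.8 TPM in liver and 909, 938, 907 and 839 TPM in BAT (log2 difference -4.66 ± 0.07, adjusted p = 4.39e-12), and its capillary anchor Gpihbp1 averaged 24.1 against 142 TPM. Hepatic lipase Lipc read 119, 131, 150.2 and 158 TPM in liver and 0.797, 0.879, 0.951 and 0.950 TPM in BAT. The scavenger receptor Cd36 (70.5 against 1058 TPM) and the transporter Slc27a1 (12.1 against 93.3 TPM) were higher in BAT, and Slc27a2 (954 against 107 TPM) and Slc27a5 (654 against 7.07 TPM), which also activate very long fatty acids and bile acids, in liver. Slc27a2 in BAT was above its heart level (107 against 11.0 TPM). The inhibitors of lipoprotein lipase also differed: Angptl8 was 2.43-fold higher in liver, and Angptl4 was higher in BAT (81.9 against 160.2 TPM). Among the synthetases that activate fatty acids, Acsl5 was higher in liver (264 against 30.0 TPM), while Acsl1, the main form in both, was 1.34-fold higher in BAT (log2 difference -0.44 ± 0.15, adjusted p = 0.0198). Without liver library 2 or 3 or BAT library 3 or 4, Acsl1 was no longer called (adjusted p = 0.0504 to 0.0571).

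Lipid droplet and lipolysis genes were mostly higher in BAT, 15 of 25 (32.8% of all tested genes were) against 7 in liver (37.8%). The lipases that act in sequence on stored triglyceride were all among them: Pnpla2 (98.0 against 1277 TPM), Lipe (26.3 against 634 TPM) and Mgll (91.2 against 234 TPM), with the activator Abhd5 (14.0 against 46.1 TPM). Pnpla2 read 90.9, 100.4, 99.1 and 102 TPM in liver and 1258, 1299, 1347 and 1205 TPM in BAT. Plin1, the coat protein that gates this lipolysis, read 16.4, 14.4, 14.5 and 16.2 and 765, 811, 915 and 835 TPM (log2 difference -5.67 ± 0.09, adjusted p = 3.77e-12). Plin2, the coat protein of hepatocyte droplets, read 298, 415, 186 and 269 and 388, 468, 685 and 629 TPM and was 1.86-fold higher in BAT, with groups that overlapped (log2 difference -0.91 ± 0.25, adjusted p = 0.00676, and adjusted p = 0.0885 without BAT libraries 3 and 4). Pnpla3, known for its human variant in fatty liver, was 36.8-fold higher in BAT (3.08 against 113 TPM). The liver side consisted of Cideb (252 against 7.88 TPM), Hsd17b13 (395 against 4.06 TPM) and Hsd17b11 (164 against 23.0 TPM) of the droplet surface, Fitm1 (60.5 against 5.50 TPM), the hydrolases Aadac (555 against 4.65 TPM) and Lipa (116 against 54.1 TPM), and Tm6sf2 (29.1 against 0.493 TPM), which acts in lipoprotein loading. The BAT values of Aadac, Hsd17b13, Fitm1 and Tm6sf2 were within 3% of their highest tissue. The carboxylesterase Ces1d, a triglyceride hydrolase, was abundant in both and not called, at 950.5, 739.7, 761 and 835 TPM in liver and 799, 824, 757 and 749 TPM in BAT (log2 difference 0.06 ± 0.10, adjusted p = 0.579, and a log2 difference of -0.78 without mitochondrial genes and their copies).

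Genes of fatty acid synthesis differed in both directions. Fasn, the fatty acid synthase, read 133, 313, 101 and 162 TPM in liver and 1547, 2940.2, 1494 and 877 TPM in BAT (log2 difference -3.26 ± 0.39, adjusted p = 2.53e-05). Library 2 was the highest of each tissue, and BAT library 4 the lowest of BAT, yet above all liver libraries. Acaca and Acacb, which make malonyl-CoA, were 4.76-fold and 4.19-fold higher in BAT. The desaturases of polyunsaturated fatty acids, Fads1 and Fads2, were 50.2-fold and 61.5-fold higher in liver, and so were Elovl5 (289 against 21.1 TPM) and Elovl2 (265 against 2.42 TPM), which lengthen these chains. Fads2 read 623, 667, 374 and 552 TPM in liver and 8.36, 8.74, 9.85 and 9.10 TPM in BAT. Elovl3 read 18.8, 42.3, 26.0 and 61.0 TPM in liver and 16.8, 27.4, 17.0 and 7.36 TPM in BAT (log2 difference 1.06 ± 0.41, adjusted p = 0.0378). Its groups overlapped, as BAT library 2 lay above liver libraries 1 and 3, and its difference was 0.26 without mitochondrial genes and their copies. The call of Elovl3 was lost without liver library 2 or 4 or BAT library 1, 3 or 4 (adjusted p = 0.0582 to 0.104). Scd1, which makes oleate, was the most abundant nuclear gene shared by both tissues apart from the mitochondrial pseudogenes, at 1567, 3460.1, 2428 and 3369 TPM in liver and 3282, 4123, 4564 and 4303 TPM in BAT. It was higher in BAT by 1.50-fold (log2 difference -0.65 ± 0.23, adjusted p = 0.0302), with groups that overlapped. Scd1 was no longer called without liver library 3 or BAT library 2, 3 or 4 (adjusted p = 0.0577 to 0.0739), and without liver library 1 its log2 difference was -0.41.

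Of the enzymes that join fatty acids to glycerol, Agpat2 (172 against 664 TPM), Agpat1 (20.4 against 88.2 TPM), Dgat1 (23.1 against 150.1 TPM) and Dgat2 (433 against 1192 TPM) were each at least 2-fold higher in BAT. Of the lipins, Lpin2 was 20.1-fold higher in liver (117 against 5.79 TPM), and Lpin1 read 14.6, 58.9, 71.2 and 105 TPM in liver and 55.1, 55.7, 96.7 and 77.5 TPM in BAT and was not called (log2 difference -0.44 ± 0.49, adjusted p = 0.444). Liver library 1 was far below the other liver libraries for Lpin1. The regulators of the pathway were higher in liver, Srebf1 by 2.70-fold and Mlxipl by 1.40-fold (log2 difference 0.47, turning to -0.37 without mitochondrial genes and their copies). In the whole list of 31 tested genes, 12 were higher in liver (37.8% of all tested genes were), 13 in BAT (32.8%) and 6 were not called. The list's median was -0.43.

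Genes for the export of lipid were mostly higher in liver. Of 26 tested genes for apolipoproteins and lipoprotein assembly, 22 were higher in liver and 2 in BAT, Apod (0.687 against 4.93 TPM) and Abcg1 (1.11 against 2.42 TPM). Apob, the structural protein of very low density lipoprotein, read 1122, 1048, 1055 and 988 TPM in liver and 10.1, 10.7, 11.4 and 10.7 TPM in BAT, and Mttp, which loads it, averaged 109 against 2.23 TPM. The BAT value of Mttp was 2.03% of that of liver and that of Apob 1.02%. Apoe and Apoc1 had the highest levels of this list in BAT. Apoe read 28676, 34159, 34831 and 30468 TPM in liver and 1210.4, 1037, 1112 and 1287 TPM in BAT, and Apoc1 6911, 9175, 11652 and 9669 and 606, 682, 471 and 404 TPM. Their BAT levels were 3.63% and 5.78% of liver, above the share of Apoa1 and Apob, and above heart (573 and 104 TPM).

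Cholesterol synthesis genes were higher in liver with few exceptions. Of 25 tested genes, 21 were higher in liver (median log2 difference of the list 2.37) and 4 were not called. Among the latter were Acat2 and Hmgcs1, which act at the entry of the pathway. Acat2, the cytosolic thiolase, read 53.0, 76.3, 44.0 and 70.4 TPM in liver and 65.4, 69.9, 61.6 and 59.8 TPM in BAT, and Hmgcs1 81.9, 116, 37.0 and 81.2 and 75.1, 74.2, 112 and 111 TPM. The groups overlapped for both (log2 differences -0.10 and -0.31), and liver library 3 was the lowest liver library for both. In heart they averaged 3.15 and 13.5 TPM, below every liver and BAT library. The lipoprotein receptor gene Vldlr was higher in BAT (3.70 against 32.9 TPM).

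All 20 tested genes of bile acid synthesis and transport were at least 2-fold higher in liver. Cyp7a1, the rate-limiting enzyme of bile acid synthesis, averaged 71.8 ± 30.9 TPM in liver and 0.466 ± 0.0470 TPM in BAT (SD, n = 4). The bile salt pump Abcb11 (90.4 against 0.919 TPM) and the uptake carriers Slc10a1 (568 against 4.88 TPM) and Slco1b2 (472 against 4.88 TPM) stood at the common low level in BAT. Genes that also serve other tissues stood above that share: Cyp27a1 at 10.7%, Hsd3b7 at 11.2% and Amacr at 19.3%.

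Ketone bodies are made by liver and used elsewhere, and the genes of this list differed in both directions. Of 10 tested, 6 were higher in liver and 3 in BAT, where 37.8% and 32.8% of all tested genes were. Bdh1, which interconverts the ketone bodies, was higher in liver (189 against 3.37 TPM). Oxct1, which starts ketone body use and which hepatocytes lack, read 9.05, 10.3, 7.83 and 11.1 TPM in liver and 91.1, 80.6, 90.7 and 92.5 TPM in BAT (log2 difference -3.09 ± 0.11, adjusted p = 1.32e-09). Its liver level was 3.48% of that in heart. Acat1 was 1.41-fold higher in BAT (log2 difference -0.49 ± 0.09, adjusted p = 8.41e-04), and the monocarboxylate carriers Slc16a1 (14.9 against 55.9 TPM) and Slc16a7 (45.2 against 6.24 TPM) were higher in BAT and in liver respectively.

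Of 23 tested genes of gluconeogenesis and glycogen, 12 were higher in liver (37.8% of all tested genes were) and 6 in BAT (32.8%). The median of 0.63 turned to -0.21 without mitochondrial genes and their copies. G6pc, which releases free glucose, averaged 235 ± 90.3 TPM in liver and 2.82 ± 0.263 TPM in BAT, and Gckr, a regulatory protein of sugar metabolism, averaged 148 against 1.64 TPM. Pck1, phosphoenolpyruvate carboxykinase, which feeds glucose production in liver and glycerol production in fat, read 809, 1494, 2298 and 2328 TPM in liver and 1474, 1423, 1448 and 1511 TPM in BAT. The BAT libraries were alike and the liver libraries ran from below to above them, and the gene was not called (log2 difference 0.12 ± 0.29, adjusted p = 0.717). Without liver library 1 it was called higher in liver (0.45, adjusted p = 0.0225), and without mitochondrial genes and their copies the difference was -0.72. In glycogen breakdown Pygl read 156, 248, 195 and 231 TPM in liver and 127, 189, 123 and 102 TPM in BAT (log2 difference 0.63, turning to -0.21 without mitochondrial genes and their copies), with groups that overlapped and an adjusted p of 0.146 without BAT libraries 3 and 4. Of 28 tested glycolysis genes, 16 were higher in BAT (32.8% of all tested genes were) and 9 in liver (37.8%). Toward BAT were hexokinase 2, Hk2 (3.50 against 72.7 TPM), Aldoa (394 against 2343 TPM), Pfkl (18.5 against 196 TPM), Pfkp (1.33 against 31.8 TPM), Eno1 (399 against 1171 TPM) and the regulatory enzyme Pfkfb3 (6.15 against 104 TPM). Khk, which admits fructose, was 25.9-fold higher in liver.

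Genes of the shuttles that carry reducing equivalents into mitochondria differed in both directions. The glycerol phosphate shuttle consists of Gpd1 in the cytosol and Gpd2 on the inner membrane. Gpd1 read 156, 206, 163 and 179 TPM in liver and 1687, 2069, 2318 and 2256 TPM in BAT, and Gpd2 12.5, 16.8, 10.6 and 12.8 and 151, 158, 160.1 and 158 TPM. Gpd1 was 11.8-fold and Gpd2 11.9-fold higher in BAT, with no overlap. In the malate-aspartate shuttle the cytosolic enzymes Got1 and Mdh1 were higher in liver. Got1 read 103, 230.0, 406 and 488 TPM in liver and 15.0, 18.6, 20.1 and 19.0 TPM in BAT, with liver library 1 the lowest of its group (log2 difference 3.79 ± 0.40, adjusted p = 9.60e-06). Mdh1 read 116, 72.3, 54.7 and 101 and 48.7, 16.1, 25.7 and 44.4 TPM (log2 difference 1.39 ± 0.34, adjusted p = 0.00404). The carrier Slc25a13 of that shuttle, which the urea cycle shares, was higher in liver (131 against 2.03 TPM), and so was Slc25a12 (12.4 against 6.17 TPM), while the carrier Slc25a11 of the same shuttle was 1.35-fold higher in BAT. Mdh1, Slc25a11 and Slc25a12 were named after their values were seen.

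The urea cycle and the breakdown of most amino acids were higher in liver, in most cases with BAT at the common low level. Of 29 tested genes 27 were at least 2-fold higher in liver. Cps1, the first enzyme of the cycle, averaged 1029 ± 352 TPM in liver and 9.42 ± 0.822 TPM in BAT (SD, n = 4), and Otc, Ass1 and Arg1 stood at 1.00%, 1.21% and 0.965% of liver in BAT. Fah, Aldh4a1 and Gpt were well above that share, at 5.54%, 21.2% and 14.6%. For the breakdown of branched-chain amino acids 22 genes were tested. Of these, 13 were higher in BAT (32.8% of all tested genes were), 3 in liver (37.8%) and 6 were not called. Bcat2, the mitochondrial transaminase for these amino acids, was 1.54-fold higher in BAT (log2 difference -0.62 ± 0.14, adjusted p = 0.00252). The kinase that turns off the next enzyme, Bckdk, was 6.97-fold higher in BAT, and the phosphatase that turns it on, Ppm1k, 5.84-fold higher in liver.

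The citric acid cycle was higher in BAT in 29 of 31 tested genes, with a median log2 difference of -2.04. Idh3a, the catalytic subunit of the NAD-linked isocitrate dehydrogenase, read 50.7, 51.2, 54.1 and 51.2 TPM in liver and 830.2, 857, 971 and 929 TPM in BAT (log2 difference -4.09 ± 0.08, adjusted p = 1.45e-11). Spread within each tissue was small beside this 17.3-fold gap. Citrate synthase Cs (76.3 against 764 TPM) differed by 10.0-fold. The nucleotide-specific subunits of succinyl-CoA ligase went in opposite directions: the ATP-forming Sucla2 was 7.29-fold higher in BAT (137 against 1003 TPM), while the GTP-forming Suclg2 was 2.39-fold higher in liver (158 against 66.1 TPM). Of the kinases that shut pyruvate out of the cycle, Pdk4 read 28.0, 32.2, 26.1 and 28.6 TPM in liver and 733, 672, 949.6 and 976 TPM in BAT, and Pdk1 was higher in liver (53.1 against 16.7 TPM). BAT libraries 3 and 4 were the higher ones for Pdk4.

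Respiratory chain mRNA was higher in BAT for nearly every subunit. All 36 nuclear genes of complex I and all 14 of complexes II and III were called higher in BAT, with medians of -1.48 and -1.64. Of the 16 complex IV genes 15 were, the exception being Cox6a2, the muscle form, which was not called and stood at the low level (45.7 against 42.9 TPM, where the heart mean was 1696 TPM and the BAT mean 2.53% of it). All 13 mitochondrially encoded mRNAs were higher in BAT (median log2 difference -1.64). An unknown part of their reads was given to the pseudogenes and is missing from these values, and the share of mitochondrial RNA sets the scaling. The complex IV forms Cox8b and Cox7a1 differed most. Cox8b read 127, 154, 123 and 145 TPM in liver and 3869.9, 4826, 4577 and 4236 TPM in BAT (log2 difference -4.98 ± 0.11, adjusted p = 2.50e-11), and Cox7a1 55.4, 58.0, 58.5 and 57.5 and 1411, 1563, 1476 and 1383 TPM. Their broad partners Cox8a (555 against 1659.7 TPM) and Cox7a2 (257 against 688 TPM) differed by 2.99-fold and 2.68-fold. Cox8a made up 80.1% of the sum of Cox8a and Cox8b in liver and 27.5% in BAT. The liver values of Cox8b and Cox7a1 were 3.14% and 3.93% of the highest of the 4 tissues.

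ATP synthase departed from this pattern in its subunit c. Of 16 nuclear genes, 12 were higher in BAT and 4 in liver. Subunit c, of which a ring in the membrane is built, is encoded by Atp5g1, Atp5g2 and Atp5g3, and a low level of the Atp5g1 transcript is a known trait of rodent brown fat, whose mitochondria hold little ATP synthase for their respiratory capacity. Atp5g1 read 316, 392, 418 and 429 TPM in liver and 39.6, 47.5, 51.1 and 46.1 TPM in BAT (log2 difference 3.05 ± 0.12, adjusted p = 2.83e-09). Every liver library was far above every BAT library. Its mean was 1660.1 TPM in heart and 1039 TPM in muscle, so that the BAT mean, at 2.78% of heart, lay within the common low level. Atp5g3 read 841, 1077, 1078 and 1061 TPM in liver and 368, 435, 412 and 341 TPM in BAT (log2 difference 1.38 ± 0.12, adjusted p = 1.40e-06), and Atp5g2 was lower than both and slightly higher in BAT (9.08 against 13.5 TPM). Atp5b, the catalytic beta subunit, went the other way, at 859, 1111, 956 and 1233 TPM in liver and 3945, 4037, 4505 and 4693 TPM in BAT (log2 difference -2.06 ± 0.13, adjusted p = 1.10e-07). The remaining exceptions, Atp5j (0.55) and the inhibitor Atpif1 (0.49, adjusted p = 0.0940 without BAT libraries 1 and 2), turned to -0.29 and -0.33 without mitochondrial genes and their copies, whereas Atp5g1 and Atp5g3 kept their direction at 2.21 and 0.53.

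**Figure D3:**
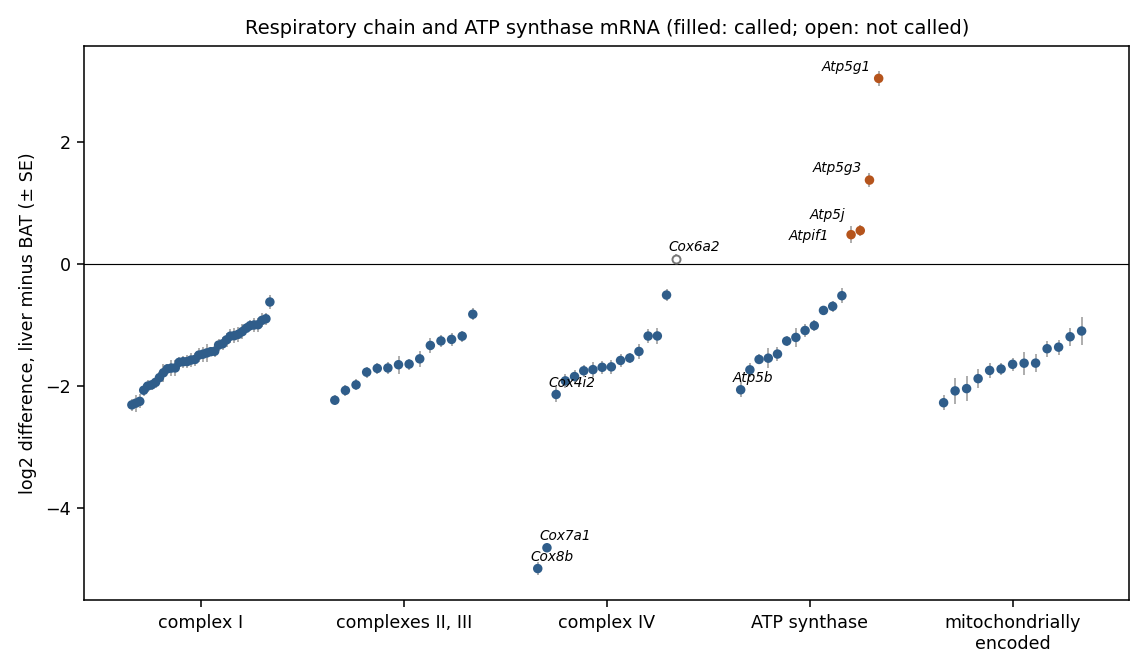
Log2 difference (liver minus BAT, on log2(TPM + 1), with SE bars) of the genes of each respiratory complex, of ATP synthase and of mitochondrially encoded mRNA, ordered within each group. Filled points are called genes and open grey points are not. Most genes lie below 0, Cox8b and Cox7a1 lie lowest at -4.98 and -4.64, and Atp5g1 and Atp5g3 lie highest at 3.05 and 1.38.

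Inner membrane carriers were divided between the tissues. Of 27 tested, 13 were higher in BAT and 11 in liver, where 32.8% and 37.8% of all tested genes were. Beside Ucp1, Ucp3 (3.07 against 45.4 TPM) and Ucp2 (15.6 against 38.6 TPM) were higher in BAT, Ucp3 lying at 2.35% of muscle in liver. The log2 difference of Ucp2 was -1.15 with all libraries, -0.55 without BAT libraries 3 and 4 and -1.74 without 1 and 2. Slc25a35, an orphan carrier, read 1.62, 2.11, 1.74 and 1.73 TPM in liver and 63.1, 66.6, 61.2 and 61.5 TPM in BAT. Slc25a47, an orphan carrier of hepatocytes, read 599, 851, 494 and 806 and 10.7, 11.5, 11.5 and 11.1 TPM. The adenine nucleotide carrier Slc25a4, the main form of heart and muscle, was higher in BAT (84.1 against 302 TPM). Nnt, which makes mitochondrial NADPH and is known to carry a deletion in C57BL/6J mice, read 24.8, 42.3, 39.8 and 43.0 TPM in liver and 1.16, 1.63, 6.75 and 6.09 TPM in BAT (log2 difference 3.16 ± 0.40, adjusted p = 4.12e-05). BAT libraries 3 and 4 were higher than 1 and 2 for Nnt, and its BAT mean was 2.84% of the heart mean.

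Genes of heat production and of the adipocyte were higher in BAT with few exceptions. Of 29 tested genes on the thermogenesis list 23 were higher in BAT, and of 26 on the adipocyte list 24 were. The beta-3 adrenergic receptor Adrb3 read 9.93, 6.83, 6.88 and 7.98 TPM in liver and 134, 151, 202 and 177 TPM in BAT (log2 difference -4.23 ± 0.15, adjusted p = 1.28e-09). Its liver level was 4.76% of BAT and above the heart and muscle means (2.39 and 3.21 TPM). Dio2, which activates thyroid hormone, read 0.497, 0.444, 0.501 and 0.576 TPM in liver and 15.5, 5.31, 34.4 and 54.6 TPM in BAT. Its BAT libraries spread widely, with library 2 lowest and library 4 highest, and all lay above the liver libraries. Prdm16, a transcriptional regulator of brown fat, was low in both (0.203 against 3.10 TPM), and the coactivators Ppargc1a (3.42 against 12.1 TPM) and Ppargc1b (2.36 against 17.8 TPM) were higher in BAT, Ppargc1a by a log2 difference of -1.44 that was -0.93 without BAT libraries 3 and 4. Kcnk3 (2.18 against 72.8 TPM), a potassium channel, Otop1 (1.56 against 85.6 TPM), a proton channel, and S100b (2.95 against 149 TPM) were 33.4-fold, 54.9-fold and 50.4-fold higher in BAT. Pank1, for coenzyme A synthesis, was not called, at 170.4, 159, 114 and 155 TPM in liver and 167, 158, 135 and 131 TPM in BAT, with a log2 difference of -0.84 without mitochondrial genes and their copies. Fgf21, a hormone that both tissues can secrete, was higher in liver. It read 5.84, 5.22, 1.08 and 5.82 TPM in liver and 0.644, 0.631, 1.46 and 0.882 TPM in BAT, the groups overlapped, and the adjusted p was 0.0512 without BAT libraries 1 and 2.

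Of 26 tested adipokines and hepatokines, 10 were higher in BAT and 14 in liver, where 32.8% and 37.8% of all tested genes were. Adipoq, adiponectin, read 10.8, 11.7, 9.80 and 9.80 TPM in liver and 573, 617, 499 and 517 TPM in BAT. Leptin, Lep, read 2.41, 2.54, 2.14 and 2.13 and 26.5, 43.5, 109 and 85.8 TPM, and resistin, Retn, 0.544, 0.589, 0.556 and 0.483 and 31.0, 56.2, 12.8 and 10.0 TPM. In BAT, libraries 3 and 4 were high for Lep and low for Retn, and the same libraries were low for Cfd, the complement factor adipsin (561, 580.3, 143 and 202 TPM). Nrg4, a growth factor that BAT sends to liver, averaged 14.3 against 97.2 TPM. Of 45 tested plasma proteins 43 were at least 2-fold higher in liver, at a median of 6.26. This median is limited by the common low level, since 39 of the 2-fold genes had their lower tissue within 3% of the highest WT tissue. Haptoglobin, Hp, had the highest BAT level of the plasma proteins on this list. It read 2734, 2432, 2716 and 2843 TPM in liver and 572, 732, 1426 and 1025 TPM in BAT (log2 difference 1.60 ± 0.24, adjusted p = 1.32e-04), against 53.3 TPM in heart. Its BAT libraries 3 and 4 were the higher ones. Rbp4, the retinol carrier, was 51.0-fold higher in liver, at 101 TPM in BAT.

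Of the nuclear receptors and lipid regulators, 21 of 37 were higher in liver and 13 in BAT. Among all tested genes the shares were 37.8% and 32.8%. Hnf4a, Nr1h4 (the bile acid receptor), Nr1i2 and Nr1i3 (xenobiotic receptors) stood at 1.04%, 1.13%, 0.992% and 0.965% of liver in BAT. Pparg, the adipocyte receptor, read 14.6, 14.0, 7.64 and 9.31 TPM in liver and 128, 134, 182 and 178 TPM in BAT (log2 difference -3.69 ± 0.20, adjusted p = 4.83e-08). Ppara, its counterpart for fatty acid oxidation, read 55.3, 97.4, 59.2 and 83.8 and 45.2, 37.1, 52.2 and 55.7 TPM, a small difference toward liver (0.60) that turned to -0.23 without mitochondrial genes and their copies and was not called without BAT libraries 1 and 2 (adjusted p = 0.143). Cebpa, a factor of both hepatocytes and adipocytes, read 267, 202, 271 and 256 and 256, 293, 206 and 149.8 TPM and was not called (log2 difference 0.17 ± 0.19, adjusted p = 0.441). Its difference was -0.67 without mitochondrial genes and their copies, and without BAT libraries 1 and 2 it was called higher in liver (0.49, adjusted p = 0.0325). Thra was higher in BAT (7.84 against 36.1 TPM) and Thrb in liver (11.0 against 6.03 TPM), Esrra (29.2 against 76.5 TPM) and Nr4a1 (4.95 against 54.9 TPM) in BAT, and Rxra (137 against 16.1 TPM) and Klf15 (106 against 13.9 TPM) in liver.

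Receptors of hormones and transmitters were divided, 12 of 27 higher in liver and 14 in BAT, where 37.8% and 32.8% of all tested genes were. The glucagon receptor Gcgr (204 against 2.15 TPM), the prolactin receptor Prlr (49.7 against 0.574 TPM), the growth hormone receptor Ghr (263 against 61.5 TPM) and the alpha-1B adrenergic receptor Adra1b (46.0 against 0.709 TPM) were higher in liver. Alpha-1A Adra1a (3.36 against 19.5 TPM), Adrb1 (0.426 against 11.5 TPM), the natriuretic peptide receptors Npr1 (4.05 against 22.0 TPM) and Npr3 (1.57 against 60.8 TPM), the prostaglandin receptor Ptger3 (0.596 against 25.0 TPM) and the fatty acid receptor Ffar4 (0.569 against 23.5 TPM) were higher in BAT. The insulin receptor Insr was 2.15-fold higher in liver (log2 difference 1.04, and 0.24 without mitochondrial genes and their copies). Of the fibroblast growth factor receptors, Fgfr1 was higher in BAT (2.59 against 18.5 TPM) and Fgfr4 in liver (17.4 against 0.151 TPM), and their co-receptor Klb was higher in liver (10.8 against 3.29 TPM).

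The remaining lists, except that of creatine and calcium genes, had more genes higher in liver than in BAT. Among all tested genes 37.8% were higher in liver and 32.8% in BAT. Of 38 xenobiotic metabolism genes 35 were at least 2-fold higher in liver, and the 2 higher in BAT were the cytochromes P450 Cyp2b10 (4.17 against 20.7 TPM) and Cyp4b1 (10.5 against 44.3 TPM). Of 30 genes for protein folding and secretion in the endoplasmic reticulum 26 were higher in liver, among them P4hb (548 against 35.7 TPM), and Ddit3, a stress response factor, was 4.08-fold higher in BAT. In iron and heme metabolism 16 of 25 were higher in liver, led by the hormone Hamp (2959 against 25.6 TPM), while the transferrin receptor Tfrc was higher in BAT (7.61 against 15.8 TPM). In coenzyme A, carnitine and NAD metabolism 15 of 24 were higher in liver and 6 in BAT. Bbox1, the last enzyme of carnitine synthesis, averaged 81.2 against 0.825 TPM. The medians of the iron and the coenzyme A lists, 1.13 each, were 0.30 each without mitochondrial genes and their copies. Creatine and calcium genes gave 5 and 6 of 19, with Gamt of creatine synthesis higher in liver (257 against 7.03 TPM) and the kinase Ckb in BAT (2.27 against 23.7 TPM). Cytosolic ribosomal proteins were higher in liver in 26 of 47 and in BAT in 3, but their median of 0.34 turned to -0.14 without mitochondrially encoded genes and to -0.51 without their copies too.

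**Figure D4:**
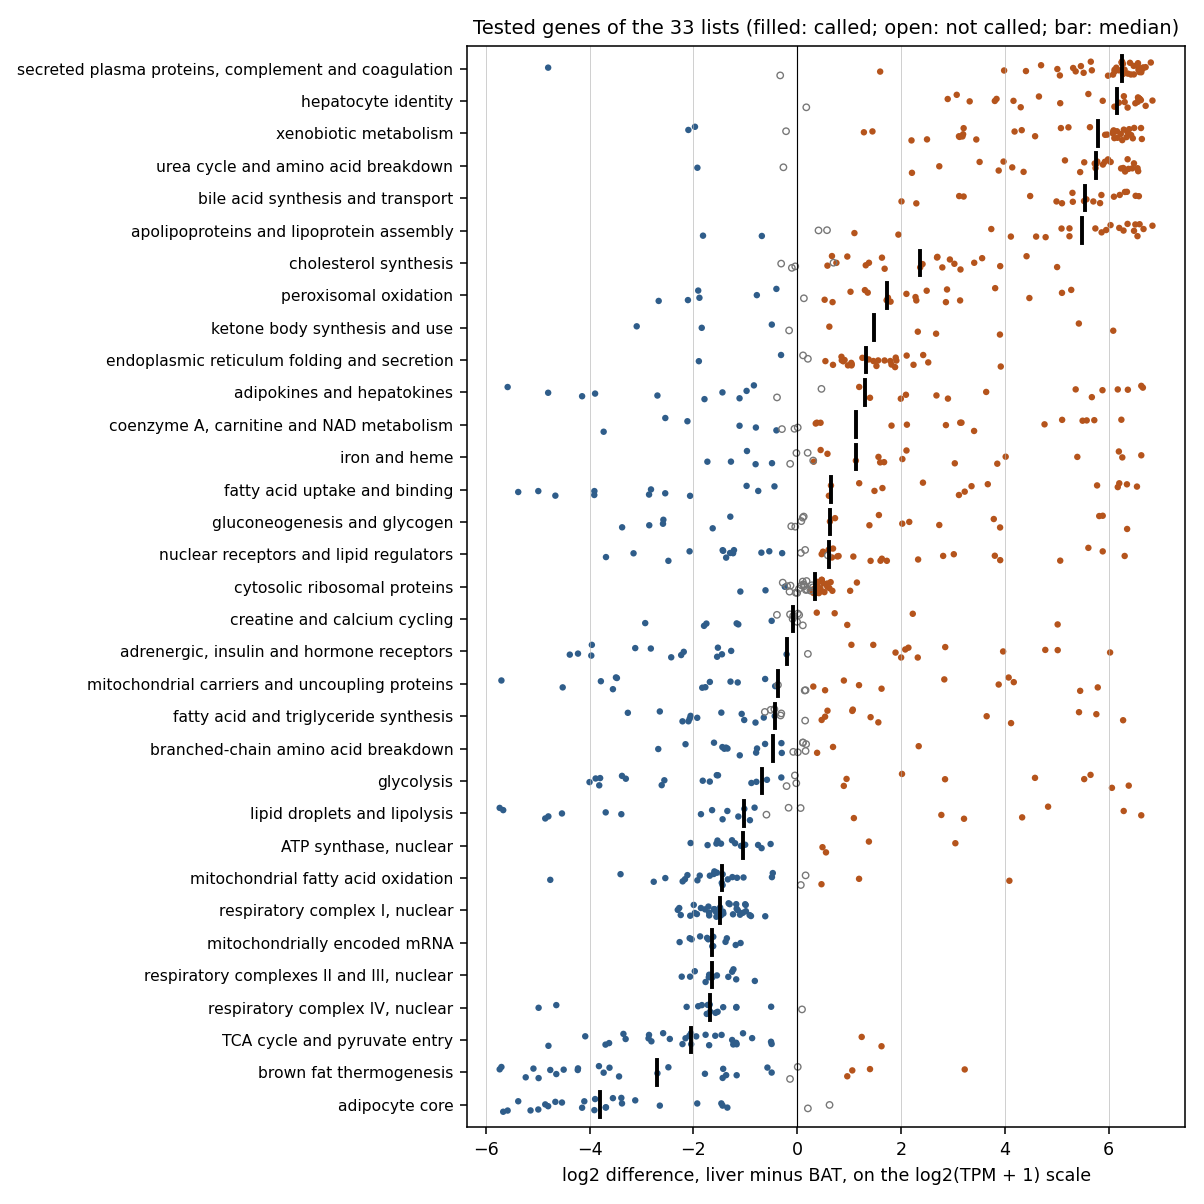
Log2 differences (liver minus BAT) of the tested genes of 33 lists, ordered by median. Each point is a gene, filled and coloured by direction where called and open where not, and bars are medians. The median was 6.26 for secreted plasma proteins and -3.79 for the adipocyte list, and fatty acid uptake, glycolysis and receptor lists spread to both sides. Among 2-fold genes, the lower tissue lay within 3% of the highest WT tissue for 39 plasma protein genes and 6 adipocyte genes. The plasma protein median is therefore limited by the common low level.

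A second comparison asked which genes liver and BAT share against heart and skeletal muscle. Called, at least 2-fold different and with all 8 liver and BAT libraries beyond all 8 heart and muscle libraries were 1192 of 12710 genes in the upward direction (9.38%) and 903 in the downward direction (7.1%). Which direction held more genes depended on the scaling. Downward genes outnumbered upward genes under every rescaling tried. These were median-ratio scaling and the rescalings without mitochondrially encoded genes, alone, with their copies or with the most abundant nuclear genes. In the Mut libraries, with TPM as deposited, upward genes were again the more numerous. The 12 upward genes with the widest margin between the groups were Cdo1, Chdh, Pygl, Kng2, Pck1, Acp5, Cebpa, Slc25a1, Elovl6, Slc25a48, Scd1 and Angptl8. Among them, Scd1 and Elovl6 shape new fatty acid chains, Slc25a1 exports the citrate these are made from, and Angptl8 steers circulating triglyceride between tissues. Slc25a1 read 192, 204, 190.3 and 197 TPM in liver and 98.0, 186, 169 and 107 TPM in BAT and was called higher in liver (log2 difference 0.54 ± 0.19, adjusted p = 0.0284), turning to -0.31 without mitochondrial genes and their copies. Its call was lost without liver library 2 or 4 or BAT library 1 or 4 (adjusted p = 0.0547 to 0.0811). Cdo1, which commits cysteine to taurine, read 1180.0, 1383, 1439 and 1529 TPM in liver and 644, 685, 802 and 803 TPM in BAT, against 23.8 to 28.3 TPM in heart and 31.3 to 36.3 TPM in muscle. Cebpa lay at 6.86 to 9.07 TPM in heart and 7.83 to 10.3 TPM in muscle, below every liver and BAT library. Pck1 was at 36.4 to 44.0 and 44.9 to 52.2 TPM there, and Elovl6 at 1.10 to 1.32 and 1.27 to 1.57 TPM, against 18.0, 34.4, 19.1 and 32.2 TPM in liver and 55.9, 75.7, 47.9 and 40.0 TPM in BAT. The acid phosphatase Acp5 averaged 92.5 TPM in liver and 91.8 TPM in BAT and was not called (log2 difference 0.02, and -0.82 without mitochondrial genes and their copies). Slc25a48, a choline carrier of mitochondria, and Chdh, which oxidises choline there, were 1.85-fold higher in BAT and 2.38-fold higher in liver respectively. Cdo1 itself was 1.89-fold higher in liver than in BAT (log2 difference 0.91 ± 0.11, adjusted p = 3.36e-05).

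**Figure D5:**
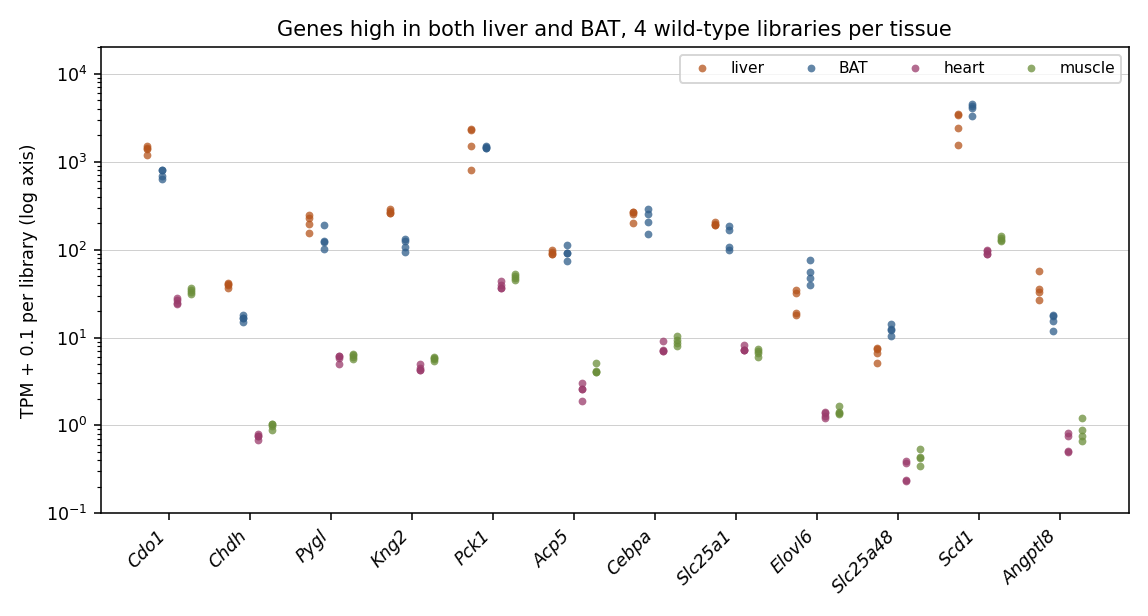
TPM with 0.1 added (log axis) in each wild-type library for the 12 genes with the widest margin between liver and BAT on the one side and heart and muscle on the other. Points are libraries, and for each gene the 8 liver and BAT libraries lie above the 8 heart and muscle libraries.

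Both tissues hold cells other than hepatocytes and brown adipocytes, and bulk RNA cannot tell fewer cells of a type from less RNA per cell. Of 10 endothelial markers 9 were at least 2-fold higher in BAT, and their sum ran from 60.8 to 103 TPM in liver and 396 to 461 TPM in BAT. Sinusoidal endothelial markers went the other way, 8 of 9 toward liver, with Clec4g at 24.8, 25.9, 36.0 and 45.3 TPM in liver and 0.290, 0.482, 0.322 and 0.565 TPM in BAT. Clec4f, a marker of Kupffer cells, read 13.1, 17.9, 23.7 and 43.3 TPM in liver and 0.191, 0.196, 0.599 and 0.182 TPM in BAT, and liver library 4 was the highest. The macrophage gene Lyz2 read 16.6, 21.4, 18.6 and 53.5 TPM in liver and 36.6, 61.8, 207 and 124 TPM in BAT, was highest in BAT libraries 3 and 4, and was not called without them (adjusted p = 0.0956). In all, the macrophage and Kupffer list summed to 69.0 to 241 TPM in liver and 68.5 to 365 TPM in BAT. None of 8 T and NK cell markers and none of 9 neutrophil markers reached the limit for a test. White adipocyte markers gave 7 of 9 toward BAT and 2 toward liver, the latter being the angiotensinogen gene Agt (476 against 5.74 TPM) and Wfdc21 (1098 against 14.9 TPM). The white adipocyte list summed to 1355 to 1842 TPM in liver and 240.1 to 429 TPM in BAT. Heart muscle markers summed to 518 to 545 TPM in liver and, below every liver library, to 424 to 486 TPM in BAT. The sums of skeletal muscle markers overlapped, at 1751 to 1879 TPM in liver and 1787 to 1937 TPM in BAT. The part of these other cells in the differences above was not tested.

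The comparison was repeated in the Mut libraries, which are separate from these. There 2431 and 2115 genes were 2-fold higher in liver and in BAT (19.1% and 16.6% of those tested), and they included 2174 of the 2414 and 1773 of the 2002 genes of the WT comparison, with none in the opposite direction. The liver minus BAT difference itself differed between WT and Mut for 235 of 12600 genes (1.87%).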

How the data were processed

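RNA of liver and BAT from 4 WT mice each was sequenced. Per the labels' protocols, total RNA was extracted with magnetic beads and strand-specific Illumina libraries were made. Per the submitters' processing notes, Salmon was used, and the authors deposited TPM values per transcript. Which version of Salmon and which transcriptome were used was not given in the sources used here. TPM keep no read depth, so counting error is unknown.

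Transcripts were summed per gene with GENCODE M21 (GRCm38). limma 3.58.1 (R 4.3.3) with a mean-variance trend was fitted to log2(TPM + 1) of the 8 libraries, for genes averaging 1 TPM or more, with Benjamini-Hochberg adjustment over all of them. Folds in the text are ratios of mean TPM and log2 differences are on the log2(TPM + 1) scale, which understates changes of low genes. The fit of liver and BAT against heart and muscle used all 16 WT libraries. The fits were tested on simulated data. Promoter windows are from RefSeq (GRCm38.p6), which had a window for 9420 of the 12399 tested genes.

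Genes were named by rule: 12 per direction with the largest difference, 10 abundant in both tissues, members of 33 lists by size of difference, level or likeness, 36 pairs, and the 12 with the widest margin over heart and muscle. Of 239 genes named in the report, 33 lie outside the rule and were chosen, mostly for known roles, after values were seen. Lists, pairs and rule were chosen with earlier results of these data known. Values of some genes that the rule selects are not reported here. Mutant libraries served as an alternative and in the comparison of the liver minus BAT difference between WT and Mut.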

Additional observations from a re-analysis of the deposited data

Results flagged for a closer look

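For each named gene, the 4 liver and the 4 BAT libraries were searched for a library whose gap to its nearest neighbour took up most of the range of its group (Dixon's test at its 95% limit). Such a library was found in 23 of 478 groups (4.81%), and chance alone flags about 1 in 20. In liver, library 1 stood high for Nr1h4 at 129 TPM (nearest 102) and Otop1 at 1.96 TPM (1.45), and low for Atp5g3 at 841 TPM (1061), Gpt at 240 TPM (341) and Otc at 295 TPM (307). Library 2 was high for Acot11 at 4.79 TPM (3.44) and Adig at 5.01 TPM (3.69). Library 3 was high for Gcgr at 227 TPM (199) and Idh3a at 54.1 TPM (51.2), and low for Fgf21 at 1.08 TPM (5.22) and Trarg1 at 2.97 TPM (3.56). Library 4 was high for Aldoa at 402 TPM (391), Lyz2 at 53.5 TPM (21.4), Prdm16 at 0.514 TPM (0.122), Serpina3k at 5804 TPM (4575) and Tfrc at 10.2 TPM (6.92).

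In BAT, library 1 was low for Acot2 at 46.0 TPM (nearest 54.8) and library 2 for Oxct1 at 80.6 TPM (90.7). Library 3 was high for Clec4f at 0.599 TPM (0.196), Hnf4a at 1.88 TPM (1.60) and Prlr at 0.972 TPM (0.468), and library 4 for Ffar4 at 27.9 TPM (22.3) and Tm6sf2 at 0.840 TPM (0.395). The BAT means of Clec4f, Hnf4a, Prlr and Tm6sf2 lay within the common low level and are not read as expression. The same holds for the liver means of Otop1, Adig and Trarg1.

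The difference between liver and BAT was also compared between WT and Mut mice, by an interaction term in limma over all genes, in which 235 of 12600 were called (Benjamini-Hochberg adjusted p under 0.05). Of the genes named here 13 were among them. The WT difference minus the Mut difference was, on the log2 scale, -3.06 for Mdh1 (adjusted p = 0.0240), for which the difference was 1.39 in WT and 4.45 in Mut mice. For Acot11 it was -1.46 (adjusted p = 0.0230), for Ppara -1.25 (0.0203), for Acaca -1.25 (0.0481), for Gpd2 -1.22 (0.00447) and for Cd36 -1.11 (0.0264). Smaller values were found for Adra1a at -0.76 (0.0230), Suclg2 at -0.59 (0.0202), Slc25a35 at -0.54 (0.0481), Hadhb at -0.49 (0.0230) and Acad11 at -0.47 (0.0444). Positive values were found for Apoa1 at 0.79 (0.0389) and Cyp27a1 at 0.60 (0.0306). In WT, Apoa1 in BAT and Slc25a35 in liver lay within the common low level, so their values may depend on that level. The median log2 difference of the hepatocyte identity list, nearly all of it at that level in BAT, was 6.15 in WT and 5.84 in Mut. Whether the low level differed between WT and Mut was not tested.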

How the results depend on the processing

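Of 237 named and tested genes, 206 kept their direction and their side of the threshold in every alternative that tested them. A minimum of 5 TPM and the scaling without the 10 most abundant nuclear genes of each tissue left some untested. Of the 25 alternatives, 22 were planned and 3 (leaving out BAT libraries 1 and 2, or 3 and 4, and rescaling without mitochondrial genes and their copies) were chosen after seeing the data. Leaving out 1 library at a time gave 8356 to 8577 called genes, 4351 to 4853 higher in liver and 3690 to 4091 in BAT, with 2336 to 2516 and 1841 to 2062 of them at least 2-fold different, and 1171 to 1289 genes higher and 896 to 959 lower in liver and BAT than in heart and muscle. A minimum of 5 TPM, which tests fewer genes, gave 2609 genes higher in BAT and 1249 at least 2-fold. Rescaling without mitochondrially encoded genes gave 3101 higher in liver, 6927 in BAT and 3362 at least 2-fold in BAT. Leaving out the 10 most abundant nuclear genes of each tissue as well, mitochondrial pseudogenes among them, gave 2921, 8176 and 4194. It also gave 1387 genes lower in liver and BAT than in heart and muscle, more than were higher there. Leaving out mitochondrial genes and their copies gave 2458, 9046 and 4990. With the low level set at 1% in place of 3%, 4.53% of the 2-fold genes had their lower tissue under it, against 20.9%.

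Directions turned mainly with these scalings. Without mitochondrially encoded genes the log2 differences were -0.0124 for Acad11, -0.45 for Acp5, -0.42 for Ces1d, -0.38 for Cox6a2, -0.00775 for Mlxipl and -0.47 for Pank1, and the median of the ribosomal list was -0.14. Without the 10 most abundant nuclear genes of each tissue as well they were -0.16 for Acad11, -0.60 for Acp5, -0.0772 for Atp5j, -0.12 for Atpif1, -0.57 for Ces1d, -0.53 for Cox6a2, -0.16 for Mlxipl, -0.62 for Pank1, -0.0185 for Ppara, -0.0927 for Slc25a1 and -0.29 for the ribosomal median. Without mitochondrial genes and their copies they were -0.38 for Acad11, -0.82 for Acp5, -0.29 for Atp5j, -0.33 for Atpif1, -0.67 for Cebpa, -0.78 for Ces1d, -0.74 for Cox6a2, -0.37 for Mlxipl, -0.84 for Pank1, -0.72 for Pck1, -0.23 for Ppara, -0.21 for Pygl and -0.31 for Slc25a1. The medians were then -0.13 for fatty acid uptake, -0.21 for gluconeogenesis and glycogen, -0.51 for ribosomal proteins and -0.14 for nuclear receptors. In the Mut libraries the values were 0.0420 for Acsl1, -0.31 for Cebpa, 0.13 for Elovl6, and medians of 0.28 for fatty acid and triglyceride synthesis and -0.25 for ribosomal proteins. The hormone receptor median was 0.20 with a minimum of 5 TPM, 0.00649 without BAT library 2, and between -0.77 and that value over all single libraries left out.

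Equal replicate numbers were not taken to pair the libraries, since the sources do not say so and 1 of 4 correlations was under 0.1: deviations from the group means correlated at 0.118, 0.172, -0.0397 and 0.164 for numbers 1 to 4, and liver libraries 1, 2 and 4 but not 3 correlated best with their own number. With the number as a replicate block 8866 genes were called, and 2414 and 2007 were at least 2-fold different, of which 2412 and 2002 were the same genes. Of the named genes Elovl3 was not called with it (adjusted p = 0.0570), and no other call changed. Depth is unknown, and the low level of other tissues' RNA limits every value under about 3% of the highest tissue.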
